A study of Mus musculus with 9 samples.

Results

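The replication-dependent histone cluster genes of the mouse were examined in brain tissue labeled hypothalamus, after exposure to the inhaled anesthetic sevoflurane. They were taken by name: all 70 of the 49585 genes in the expression table whose symbols begin with Hist1h, Hist2h, Hist3h or Hist4h. The mice were male C57BL/6J wild types of 8 to 15 weeks. The control group moved freely for 120 min without sevoflurane, the 0.7 MAC group (MAC is the minimum alveolar concentration, a unit of anesthetic dose) was kept at 0.7 MAC for 120 min, a dose of quiet breathing, and the 2.0 MAC group was given 2.0 MAC for 30 min, a dose that makes mice gasp, and then 0.7 MAC for 90 min. Both sevoflurane groups were anesthetized in hyperoxia, so the oxygen and the anesthetic cannot be told apart against the control group. The authors' methods also describe tracheal intubation and a heating pad under anesthesia, which cannot be told apart from it either. Each group had 3 libraries, and nothing stated that they came from separate mice, so p-values measure the spread between libraries, which may be technical. The tissue was what remained of the brain after the cortex, cerebellum and olfactory bulb were dissected away, although the extraction text named whole brain and neurospheres.

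Replication-dependent histones wrap newly made DNA and are best known from the S phase of dividing cells. Their genes lie in clusters, are short and usually have no intron. Their mRNAs end not in a poly(A) tail but in a conserved stem-loop that the stem-loop binding protein holds, so libraries selected for poly(A) miss most of them. Here ribosomal RNA was removed instead and RNA without a tail was kept. Most neurons no longer divide, and they also draw on replication-independent histones, whose genes lie outside the clusters and whose mRNAs are polyadenylated.

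The 70 genes fell into 6 genes for H1, the linker histone, 20 for H2A, 19 for H2B, 12 for H3 and 13 for H4, the 4 histones of the nucleosome core. The Hist1 cluster on chromosome 13 held 56 of them, the Hist2 cluster on chromosome 3 held 10, the Hist3 cluster on chromosome 11 held 3, and Hist4h4 lay alone on chromosome 6. A single exon was annotated for 63 of the 70. The 13 H4 genes had 12 different coding sequences but encoded 1 protein sequence in GENCODE release M21, and the 12 H3 genes encoded 3 proteins. The 18 H2A and 18 H2B genes with a coding sequence there encoded 9 and 12 proteins. The other H2A and H2B members, Hist1h2aj, Hist1h2al and Hist3h2bb-ps, are annotated there as pseudogenes. They stay in the counts and sums of members given here.

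The stem-loop was looked for in the 100 bases after the stop codon of the M21 transcripts (build GRCm38), on the transcript strand, as GG, any 2 bases, CTTTT, any base, AG, any 2 bases and CC. It was present in 44 of the 67 members with a coding sequence, 37 of which are annotated for fewer than 100 bases there. Of the 30 whose annotation reached a full 100 bases, 25 had it, against 3 of 19907 other coding genes (0.0151%), which were the histone genes H2afx and H2bfm and the gene Lrrc75b. The motif began 21 to 58 bases after the stop codon (median 31). The commonest form, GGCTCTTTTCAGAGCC, was shared by 26 genes of H1, H2A, H2B and H3, whereas the 11 H4 genes with a stem-loop had 3 forms that no member of another type had, of which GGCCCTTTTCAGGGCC was found in 7. The windows of the members on which the values below turn are shown as RNA-sense DNA letters, with the 16 bases of the motif in capitals and 5 flanking bases on each side.
Hist1h1c (H1, chr13:23739507-23739532, plus strand): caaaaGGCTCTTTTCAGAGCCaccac
Hist1h1d (H1, chr13:23555782-23555807, plus strand): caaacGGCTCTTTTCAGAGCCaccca
Hist1h1e (H1, chr13:23621777-23621802, minus strand): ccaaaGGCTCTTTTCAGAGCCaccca
Hist2h2aa1 (H2A, chr3:96246027-96246052, plus strand): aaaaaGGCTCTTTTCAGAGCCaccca
Hist2h2aa2 (H2A, chr3:96239779-96239804, minus strand): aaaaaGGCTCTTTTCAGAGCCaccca
Hist3h2a (H2A, chr11:58955167-58955192, plus strand): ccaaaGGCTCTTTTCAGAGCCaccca
Hist1h2be (H2B, chr13:23585526-23585551, minus strand): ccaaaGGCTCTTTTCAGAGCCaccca
Hist1h3e (H3, chr13:23561898-23561923, minus strand): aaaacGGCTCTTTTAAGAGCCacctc
Hist1h4h (H4, chr13:23531453-23531478, plus strand): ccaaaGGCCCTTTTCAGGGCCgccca
Hist1h4d (H4, chr13:23581945-23581970, plus strand): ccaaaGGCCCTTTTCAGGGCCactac
Hist2h4 (H4, chr3:96262934-96262959, minus strand): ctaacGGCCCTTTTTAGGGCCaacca
Hist2h2aa1 and Hist2h2aa2 had the same window, and their coding sequences were the same. Hist2h2be and Hist1h2bc, both H2B genes with many reads, had no match to the motif within these 100 bases.

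Among the promoters that RefSeq gives for build GRCm38.p6 (250 bases before to 50 after the start), 62 members were matched. The CCAAT box, searched on both strands, was present in 53 of them, against 41.1% of 27025 genes. It was present in all 6 H1, 18 H2A, 16 H2B and 10 H3 promoters matched, but in only 3 of 12 H4 promoters. The TATA motif TATAAA was present in 35 of the 62, against 15.7% of all genes.

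The table gave for each gene the reads that mapped to it alone (unique) and a total that also held reads mapping to several places. Its expression value was the count of unique exon reads for the histone genes. The libraries held 5321491 to 7178568 such expression values in all. Over the 9 libraries the histone genes had 15414 unique exon reads of 27054 exon reads, so 43.0% of their exon reads were left out of the expression values, against 11.4% over all genes. The share left out was 4.39% for H1, 33.1% for H4, 40.4% for H2B, 68.3% for H3 and 90.7% for H2A. The H2A genes thus kept 487 of 5224 exon reads, and only Hist2h2ac passed the filter on low counts.

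The share of unique reads followed the sequence that a gene shares with others. Each coding sequence was split into overlapping windows of 50 bases, and the share of windows found in a transcript of another gene was taken. Over the 61 coding members with 20 or more exon reads, the 2 shares had a Spearman correlation of -0.80. This is a description across genes that share sequence, not a test. Hist2h2be and Hist2h4 had 100% unique reads, with 0% and 6.08% of their windows shared. At the other end, 9 members with 20 or more exon reads had no unique exon read. They were Hist1h2ah, Hist1h2bq, Hist1h2br, Hist1h4b, Hist2h2aa1, Hist2h2aa2, Hist2h2bb, Hist2h3b and Hist2h3c1. Hist2h2aa1 had 1330 exon reads and Hist2h2aa2 674, none of them unique. Hist3h2a had 1 unique read of 2222, and its single exon (chr11:58954685-58956830) lay over an exon of Trim17, a ubiquitin ligase gene that starts at the same base in the table. Hist2h2bb and Hist1h4b had no unique exon read although only 53.6% and 72.2% of their coding windows were shared.

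**Figure D1:**
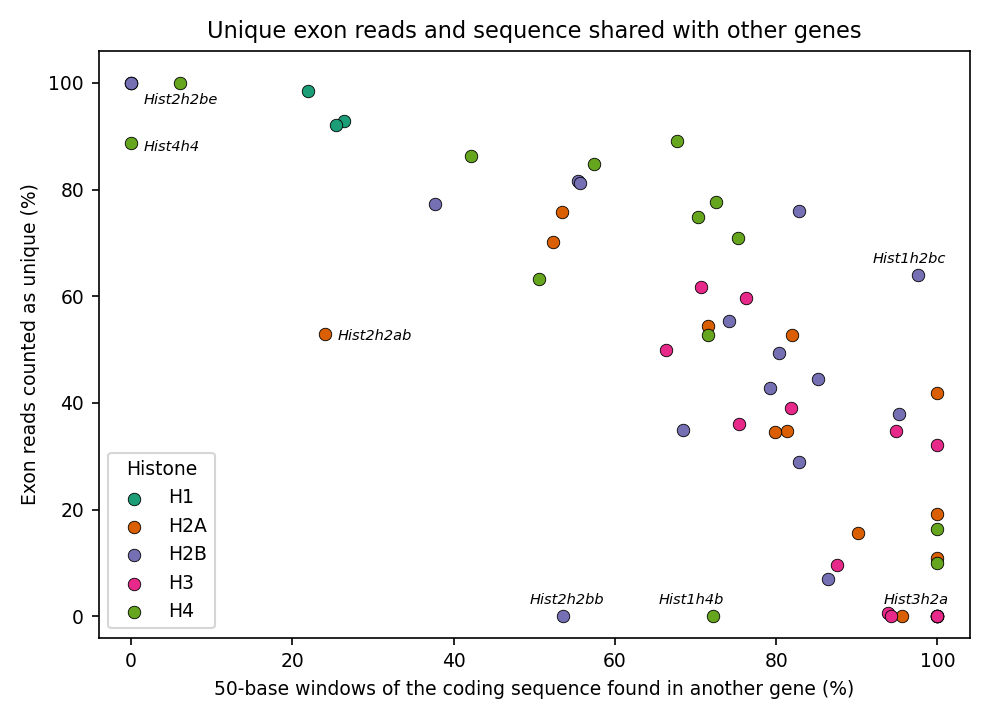
Each point is 1 of 61 histone cluster genes with 20 or more exon reads. The x axis is the percentage of 50-base coding windows found in another gene, the y axis the percentage of exon reads counted as unique over 9 libraries, and color gives the histone. Hist2h2be, at 0% shared, kept all of its reads, Hist2h2ab kept 52.9% at 24.1% shared, and the genes with all windows shared kept at most 41.9%.

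Some reads of the clusters lay outside the annotated exons. Of the 56 single-exon members with 20 or more gene reads, 10 were annotated in the table for the coding part alone, and a median of 26.3% of their gene reads lay outside the exon (range 0% to 45.0%). The other 46 had a median of 5.17% (0% to 47.3%), and the 1694 single-exon genes of the whole table had 1.37% of their pooled reads there. Hist1h4k, annotated for its 312 coding bases alone, was the highest of the 10, at 45.0%.

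Levels of different genes are compared per length, as RPKM (reads scaled to exon length and library size, from all exon reads). An exception was Hist3h2bb-ps, annotated with 0 exons, which had 0 exon reads but a mean RPKM of 1.88 that enters the H2B sum. The H4 genes had the highest summed RPKM, at 108 ± 12.8 in the control group, 124 ± 21.2 in the 0.7 MAC group and 123 ± 5.93 in the 2.0 MAC group (SD, n = 3 each). In the control group H2B followed at 41.0 ± 5.05, H2A at 36.3 ± 5.59, H1 at 26.5 ± 8.04 and H3 at 20 ± 2.78, where the neighbors H2B and H2A, and H1 and H3, differed by less than the larger of their SDs. The highest single members by mean RPKM were Hist1h4h (22.6), Hist1h4n (22.2), Hist1h4d (21.3), Hist1h4c (20.4) and the linker gene Hist1h1e (15.6). Of the reads of Hist1h4n only 16.4% were unique. Hist1h2aa and Hist1h2ba, the testis forms of H2A and H2B, had no read, and Hist1h1t, the testis form of H1, had 4 exon reads in all.

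The replication-independent histones had a lower summed RPKM than the cluster genes. Their 12 genes summed to 72.7 ± 2.75 RPKM in the control group, 73.5 ± 4.44 in the 0.7 MAC group and 78.6 ± 1.47 in the 2.0 MAC group, while the 70 cluster genes summed to 232 ± 32.6, 265 ± 33.7 and 261 ± 10.3 RPKM in the same groups. The 31 listed S phase and proliferation genes had mean RPKM of 0.0227 (Bub1, a mitotic checkpoint kinase) to 4.48 (Pcna, the sliding clamp of DNA replication), with a median of 0.26. Slbp, the stem-loop binding protein, had a mean RPKM of 1.33.

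Levels of 1 gene across libraries are given as normalized CPM (expression values scaled to library size with TMM factors, which even out differences in library makeup). The cluster genes summed to 242, 216 and 273 CPM in the control libraries, 301, 300 and 253 CPM in the 0.7 MAC libraries and 262, 275 and 268 CPM in the 2.0 MAC libraries. The 3 groups overlapped, and the 2.0 MAC libraries lay within the 0.7 MAC range. Relative to control the summed level was higher by 0.22 on the log2 scale at 0.7 MAC and by 0.14 at 2.0 MAC, and it was lower by 0.08 at 2.0 MAC against 0.7 MAC (log2 ratio -0.08), with an SD between libraries of 0.13. The H2B sum was 51.7, 58.9 and 48.4 CPM at 0.7 MAC, against 43.2, 44.7 and 44.0 CPM in control, and 47.3, 42.9 and 44.2 CPM at 2.0 MAC, so on this scale the 0.7 MAC libraries lay above all the others. Without TMM factors 0.7 MAC replicate 3 (47.1 CPM) lay below 2.0 MAC replicate 1 (47.9 CPM). In RPKM the H2B groups overlapped, with 46.5, 44.6 and 40.9 at 0.7 MAC, against 42.6, 35.4 and 45.1 in control. The log2 ratio of the H2B sum at 0.7 MAC against control was 0.27 in CPM and 0.10 in RPKM, and at 2.0 MAC against 0.7 MAC it was -0.24 in CPM and -0.08 in RPKM. The 12 replication-independent histones summed to 408 ± 12.6 CPM in control, above the 244 ± 28.7 CPM of the cluster genes. That order is the reverse of the one in RPKM. CPM is not scaled to exon length, and it also leaves out the non-unique exon reads that RPKM counts. In bulk tissue fewer cells of a type and less RNA per cell cannot be told apart.

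**Figure D2:**
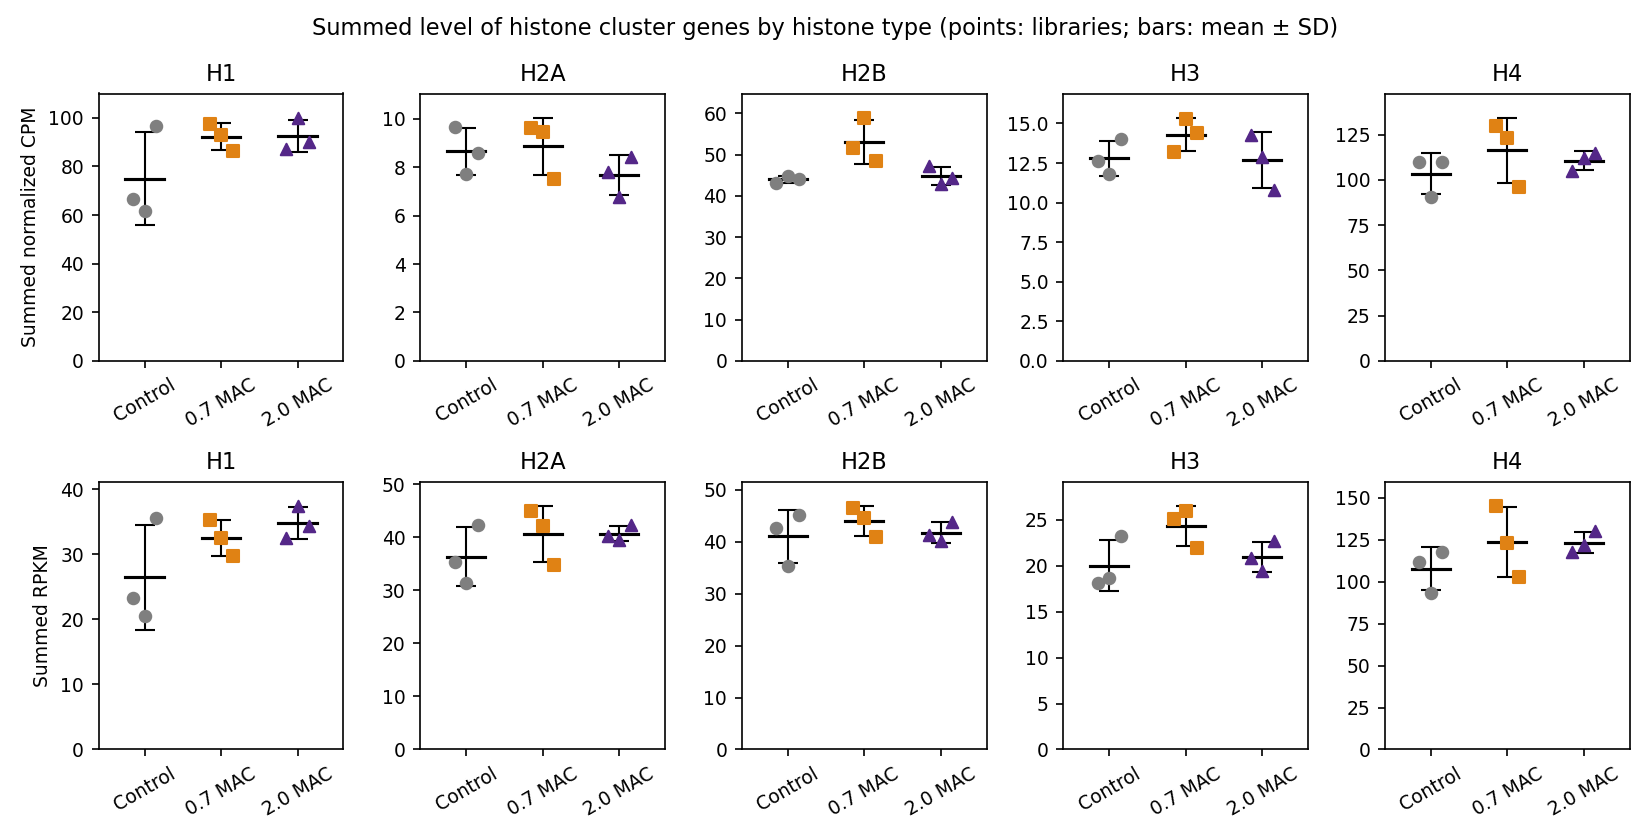
Summed normalized CPM (upper row, expression values) and summed RPKM (lower row, all exon reads except for Hist3h2bb-ps) of the histone cluster genes of each type, in control and at each dose. Points are libraries and bars the mean ± SD of 3. The H2A sum is near 8 CPM but near 36 to 41 RPKM, and control H1 values are split, with 1 library at 96.8 CPM and the others at 66.8 and 61.5.

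The first question was whether these genes differed after 30 min at the gasping dose and 90 min back at 0.7 MAC, against 0.7 MAC throughout. Of the 70 members 26 passed the filter on low counts, and the other 44 had at most 62 unique exon reads over all 9 libraries. In the comparison of 2.0 MAC with 0.7 MAC, 0 of the 26 passed edgeR's quasi-likelihood test at an adjusted p under 0.05, where 14.7% of the 14140 genes tested did. At an unadjusted p under 0.05 there were 2 of 26 (7.69%), both lower at 2.0 MAC, against 26.7% of all genes. DESeq2 called 0, where it called 11.9% of all genes, and limma on log2(RPKM + 0.1) called 0, where it called 17.2%. The median log2 fold change was -0.22 over the 26 and 0.00 over all genes, and 20 of the 26 had a negative value. The 95% intervals of 24 of the 26 lay within a 2-fold change in either direction.

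In the comparison of 0.7 MAC with control, 0 of the 26 were called by edgeR, where 1.63% of all genes were. At an unadjusted p under 0.05 there were 3 of 26 (11.5%), all higher at 0.7 MAC, against 15.5% of all genes, and DESeq2 called 0 (1.61% of all genes called) and limma 0 (0.339%). The median log2 fold change was 0.20, and 23 of the 26 were positive (88.5%, against 49.2% of all genes). In the comparison of 2.0 MAC with control, 0 were called by edgeR, where 9.78% of all genes were, 2 of 26 (7.69%) had an unadjusted p under 0.05, both higher at 2.0 MAC, against 22.7% of all genes, and DESeq2 called 1, Hist1h1e (7.68% of all genes called). There limma called 0, where it called 9.22% of all genes. The median was 0.05, with 16 of 26 positive. The 3 comparisons share libraries in pairs, so a high 0.7 MAC value enters the first as a fall and the second as a rise.

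In each comparison, 8 of the 9 fits that left out 1 library called 0 members, as with all libraries, and the remaining fit added calls. Without 0.7 MAC replicate 3, 3 members passed at 0.7 MAC against control (Hist1h1d, Hist1h4h and Hist2h2be, all higher), where 3.71% of all genes did, and 1 at 2.0 MAC against 0.7 MAC (Hist1h1d, lower), where 12.2% did. Without control replicate 3, 2 passed at 2.0 MAC against control (Hist1h1c and Hist1h1e, both higher), where 8.04% of all genes did. With no filter on low counts, 1 of 57 members passed at 2.0 MAC against 0.7 MAC (Hist1h1d, with 10.9% of all genes), 2 at 0.7 MAC against control (Hist1h1d and Hist2h2be, with 4.07%) and 1 at 2.0 MAC against control (Hist1h1e, with 8.08%).

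**Figure D3:**
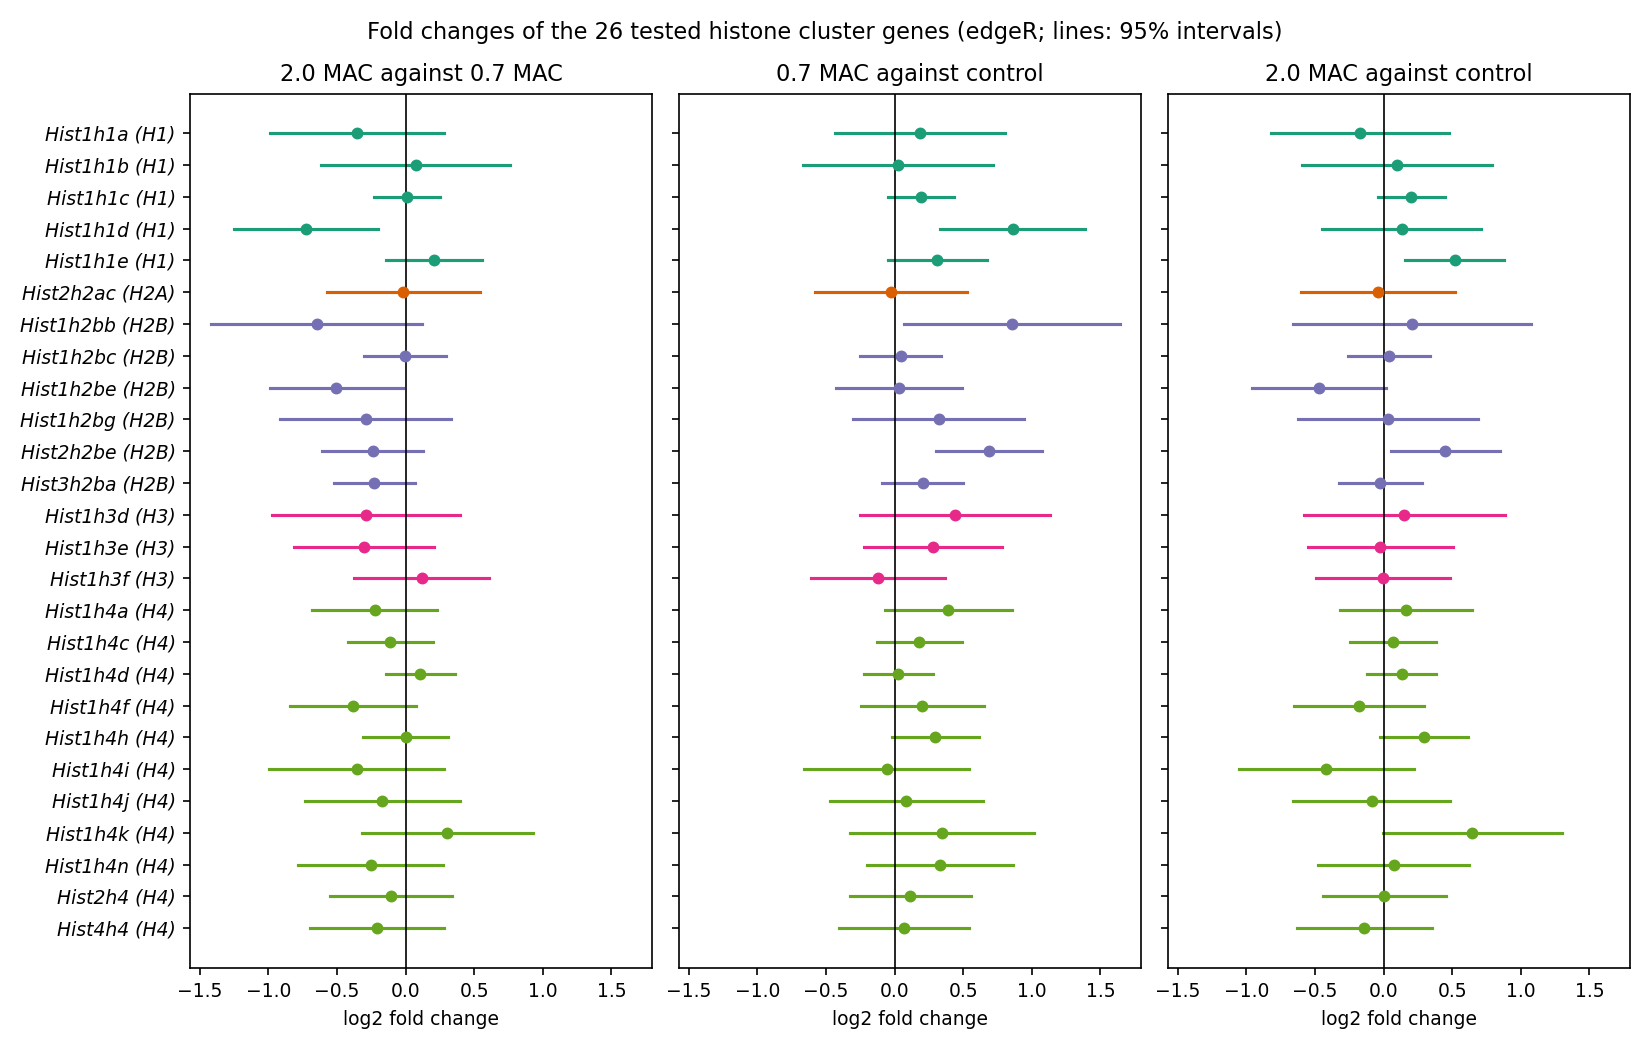
Log2 fold changes (x axis) of the 26 tested members, 1 per row and colored by histone, with 95% intervals from edgeR, for 2.0 MAC against 0.7 MAC, 0.7 MAC against control and 2.0 MAC against control. In the first panel 20 points lie below 0, in the second 23 lie above 0, and no member passed the adjusted test in any panel.

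The H1 genes were the most fully counted type, and 5 of 6 were tested. Hist1h1d (H1.3) had 10, 14.3 and 7.20 CPM in the 0.7 MAC libraries, against 5.41, 4.25 and 7.53 CPM in control, and 5.19, 7.42 and 6.21 CPM in the 2.0 MAC libraries. The third 0.7 MAC library lay among the control and 2.0 MAC values. Its log2 fold change was 0.86 (95% interval 0.33 to 1.39, adjusted p = 0.0993 by edgeR) at 0.7 MAC against control and -0.73 (-1.25 to -0.20, adjusted p = 0.0600) at 2.0 MAC against 0.7 MAC, where it was -0.45 without 0.7 MAC replicate 2.

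Hist1h1e (H1.4) had 33.0, 39.7 and 38.4 CPM in the 2.0 MAC libraries, against 23.3, 18.4 and 35.7 CPM in control, with 36.5, 29.3 and 30.5 CPM at 0.7 MAC. Control replicate 3 overlapped the 2.0 MAC values and the other control libraries did not. The log2 fold change was 0.52 (95% interval 0.16 to 0.88) at 2.0 MAC against control, with an adjusted p of 0.0674 by edgeR, 0.31 at 0.7 MAC against control and 0.21 at 2.0 MAC against 0.7 MAC. Control libraries moved the values for Hist1h1e: without control replicate 2 they were 0.32 at 2.0 MAC and 0.12 at 0.7 MAC, and without control replicate 3 they were 0.84 and 0.63. Hist1h1c (H1.2), the H1 gene with most reads, had 43.2, 49.2 and 39.6 CPM at 2.0 MAC, against 34.2, 34.0 and 46.0 CPM in control, a log2 fold change of 0.20 (-0.04 to 0.44). For Hist1h1c the 0.7 MAC values of 46.2, 42.9 and 41.8 CPM gave 0.19 against control. When 1 library was left out the Hist1h1c values ran from 0.11 (without 2.0 MAC replicate 2) to 0.36 (without control replicate 3) at 2.0 MAC and 0.12 (without control replicate 1 or 2) to 0.36 (without control replicate 3) at 0.7 MAC. All 3 genes were highest among control libraries in replicate 3.

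Of the 6 H2B genes tested, all 6 had positive values at 0.7 MAC against control and all 6 negative values at 2.0 MAC against 0.7 MAC (Hist1h2bc only -0.005). The medians were 0.26 and -0.26 and none was called. Over all genes 49.2% and 50.7% of values were positive. On total exon reads Hist1h2bf, Hist1h2bj and Hist1h2br, not among the 6, had the same signs. Hist2h2bb (-0.26, then 0.04) and Hist1h2bn (-0.56, then 1.63) had the opposite signs, and neither was called. Hist2h2be was the clearest of the 6. It had 10.3, 13.5 and 9.50 CPM at 0.7 MAC, against 5.57, 8.03 and 6.94 CPM in control, with 10.4, 9.04 and 8.84 CPM at 2.0 MAC. Neither sevoflurane group overlapped the control group. The log2 fold change was 0.69 (95% interval 0.30 to 1.07, adjusted p = 0.0669 by edgeR) at 0.7 MAC against control, 0.45 (0.05 to 0.85, adjusted p = 0.157) at 2.0 MAC against control and -0.24 at 2.0 MAC against 0.7 MAC (-0.08 without 0.7 MAC replicate 2). All of its exon reads were unique. Hist1h2bb, a low gene, had 2.37, 3.75 and 2.76 CPM at 0.7 MAC, against 2.29, 1.1 and 1.48 CPM in control, which did not overlap (0.85, adjusted p = 0.275 by edgeR). It had 2.78, 0.968 and 1.93 CPM at 2.0 MAC, a log2 fold change of -0.65 against 0.7 MAC (-0.98 without 2.0 MAC replicate 1 and -0.34 without 2.0 MAC replicate 2). Hist1h2bc and Hist3h2ba, the H2B genes with the most reads, had group means of 12.7 to 13.1 and 11.5 to 13.5 CPM.

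Hist1h2be gave different answers by the reads counted. It spans 37.4 kb in the table (chr13:23583742-23621124, minus strand), with 85.4% of its gene reads outside its exons, and Hist1h1e on the same strand is annotated in M21 (chr13:23620629-23622558) so that its end overlaps the start of Hist1h2be. From expression values it had 4.27, 4.20 and 3.45 CPM at 2.0 MAC, against 5.71, 6.36 and 4.75 CPM at 0.7 MAC, and 7.04, 5.04 and 4.43 CPM in control. The 2.0 MAC values lay below all the others. The log2 fold changes were -0.50 (adjusted p = 0.170 by edgeR) at 2.0 MAC against 0.7 MAC, -0.47 at 2.0 MAC against control (-0.26 without control replicate 1) and 0.03 at 0.7 MAC against control.

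Unique gene reads of Hist1h2be, which add those outside the exons, were 18.6, 24.3 and 18.8 RPM (reads scaled to the library's total of the same kind) at 0.7 MAC, against 15.4, 14.2 and 13.3 RPM in control, with 17.0, 14.8 and 16.1 RPM at 2.0 MAC. The 0.7 MAC libraries lay above all the others. With these reads Hist1h2be was the member called at 0.7 MAC against control (log2 fold change 0.52), where 4.81% of all genes were called, and the member called at 2.0 MAC against 0.7 MAC (-0.42), where 14.2% were. At 2.0 MAC against control the value was 0.10, opposite in sign to that from expression values, and 0 of 30 members were called by edgeR, where 12.7% of all genes were, with 3 at an unadjusted p under 0.05, where 27.0% of all genes were. With total gene reads, which add reads of several places, the members called were Hist1h2be at 2.0 MAC against 0.7 MAC (12.5% of all genes called), Hist1h2be and Hist3h2a at 0.7 MAC against control (3.11%) and Hist2h2aa1, Hist2h2aa2 and Hist3h2a at 2.0 MAC against control (10.8%).

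**Figure D4:**
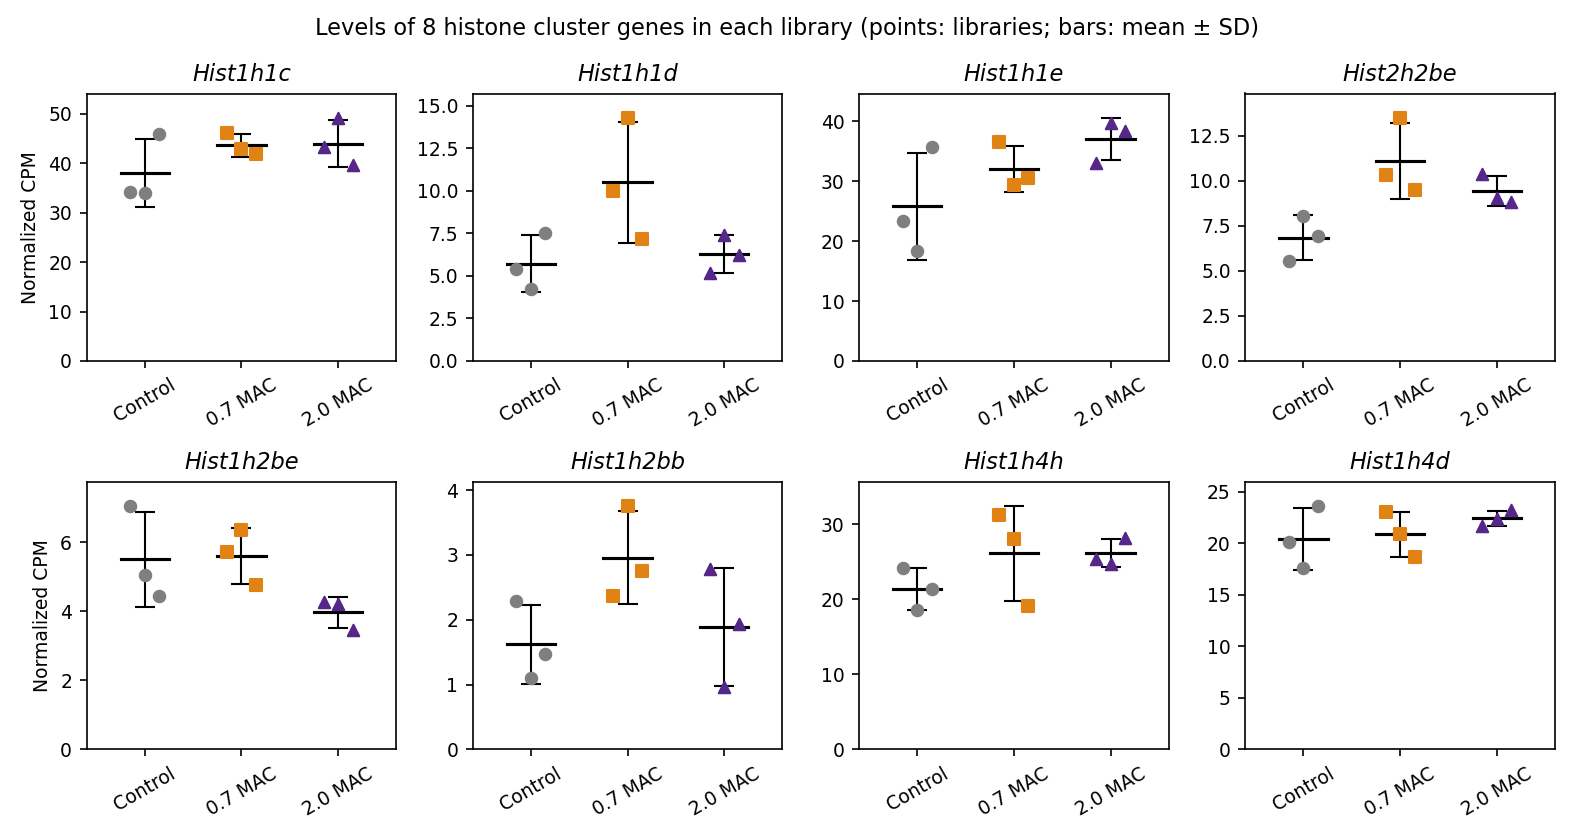
Normalized CPM (y axis, from 0) of 8 histone cluster genes in each library, in control and at each dose, with the mean ± SD of 3. Hist2h2be lies above control in all 6 sevoflurane libraries, Hist1h1d is high in 2 of 3 libraries at 0.7 MAC, and Hist1h2be is lowest in the 3 libraries at 2.0 MAC.

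No tested H3 or H4 gene was called in any comparison. The 3 tested H3 genes, Hist1h3d, Hist1h3e and Hist1h3f, had log2 fold changes of -0.30 to 0.12 at 2.0 MAC against 0.7 MAC and -0.12 to 0.44 at 0.7 MAC against control. The 11 tested H4 genes ranged from -0.38 to 0.30, from -0.06 to 0.39 and, at 2.0 MAC against control, from -0.42 to 0.65. Hist1h3e had 5.56, 5.00 and 3.31 CPM at 2.0 MAC, against 4.32, 6.85 and 5.82 CPM at 0.7 MAC, and 5.08, 3.94 and 4.87 CPM in control. The Hist1h3e groups overlapped, and so did those of Hist2h4, which had 10.2, 12.6 and 13.4 CPM at 2.0 MAC, against 15.5, 15.3 and 8.43 CPM at 0.7 MAC, and 13.6, 9.29 and 13.4 CPM in control.

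The H4 gene with most RPKM was Hist1h4h. It had 31.2, 28.0 and 19.1 CPM at 0.7 MAC, against 24.1, 18.6 and 21.4 CPM in control, and 25.4, 24.7 and 28.2 CPM at 2.0 MAC. The 2.0 MAC values lay above the control values, and the third 0.7 MAC value lay among the control values. The log2 fold change was 0.29 (95% interval -0.02 to 0.61) at 2.0 MAC against control and 0.30 at 0.7 MAC against control, where it was 0.14 without 0.7 MAC replicate 1 and 0.48 without 0.7 MAC replicate 3. Hist1h4d had 21.7, 22.4 and 23.2 CPM at 2.0 MAC, against 20.1, 17.6 and 23.6 CPM in control, which overlapped. Hist1h4k, at the top of that range (0.65 at 2.0 MAC against control), had 2.78, 6.29 and 3.59 CPM at 2.0 MAC, against 3.11, 2.36 and 2.66 CPM in control, where the second 2.0 MAC library stood highest and the groups overlapped. Without 2.0 MAC replicate 2 its value was 0.25, and with total exon reads it was 0.31. The lowest at 2.0 MAC against 0.7 MAC was Hist1h4f (-0.38, and -0.21 without 0.7 MAC replicate 1).

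Of the H2A genes only Hist2h2ac could be tested from expression values. It had 2.97, 3.39 and 3.59 CPM at 2.0 MAC, against 3.90, 3.91 and 2.30 CPM at 0.7 MAC, and 3.77, 3.78 and 2.80 CPM in control, which overlapped. The other H2A genes were followed from all exon reads, a choice made after seeing the data. With total exon reads 45 members were tested. In that fit 1 was called at 2.0 MAC against 0.7 MAC (Hist1h2br), where 13.5% of all genes were, 1 at 0.7 MAC against control (Hist3h2a), where 0.968% were, and 3 at 2.0 MAC against control (Hist2h2aa1, Hist2h2aa2 and Hist3h2a), where 8.74% were. Hist2h2aa1 and Hist2h2aa2 together had 33.3, 31.7 and 32.9 exon RPM at 2.0 MAC, against 25.4, 26.9 and 34.1 RPM in control, and 34.0, 32.7 and 27.4 RPM at 0.7 MAC. All 6 sevoflurane libraries lay within the control range.

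The split of these reads between the copies differed between groups. Hist2h2aa1 took 92.4%, 91.2% and 68.3% of them at 2.0 MAC, against 25.6%, 61.3% and 32.8% in control, and 86.8%, 67.0% and 66.8% at 0.7 MAC, so neither sevoflurane group overlapped the control group. The log2 fold changes at 2.0 MAC against control were 1.23 for Hist2h2aa1 (adjusted p = 0.00581 by edgeR) and -1.69 for Hist2h2aa2 (adjusted p = 0.0263), opposite in sign. The call of Hist2h2aa2 was lost without control replicate 1 (-1.62), control replicate 3 (-1.45), 2.0 MAC replicate 1 (-1.39) or 2.0 MAC replicate 2 (-1.38), and without 2.0 MAC replicate 3 it was -2.74. The 528-base transcript of Hist2h2aa2 is contained in the 586-base transcript of Hist2h2aa1, and no read was unique to either, so these reads do not tell the copies apart. All coding windows of both, and of Hist2h3c1 and Hist2h3c2, were also found in a further gene, Gm20634. The sums of copies do not include reads placed on Gm20634. With the copies summed, the pair differed on the log2 scale by 0.15 ± 0.11 (SE, adjusted p = 0.470 by edgeR) at 2.0 MAC against control and by 0.03 ± 0.11 at 2.0 MAC against 0.7 MAC. Hist1h2br, whose coding windows were all shared with Hist1h2bq, was a further such pair. Hist1h2br had -1.77 at 2.0 MAC against 0.7 MAC by itself (adjusted p = 0.0448 by edgeR), a call kept only without 0.7 MAC replicate 1 (-2.02) or 2.0 MAC replicate 3 (-2.42) when each of the 9 libraries was left out (range -2.42 to -1.28), and the pair summed had -0.67 (adjusted p = 0.161).

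The copies of Hist2h2aa, Hist2h3 and Hist1h2bq with Hist1h2br were then summed, but Hist3h2a was not summed with Trim17. In that fit Hist3h2a remained the member called, at 0.7 MAC against control (0.974% of all genes called) and at 2.0 MAC against control (8.75% called). It had 38.2, 40.7 and 33.8 exon RPM at 0.7 MAC and 35.0, 37.7 and 38.4 RPM at 2.0 MAC, against 26.4, 27.1 and 31.1 RPM in control. All 6 sevoflurane libraries lay above all 3 control libraries. The log2 fold changes were 0.41 ± 0.09 (SE, adjusted p = 0.0462 by edgeR) at 0.7 MAC against control, 0.37 ± 0.09 (adjusted p = 0.0220) at 2.0 MAC against control and -0.04 ± 0.09 at 2.0 MAC against 0.7 MAC. Trim17, which shares the exon, had 14.7, 11.5 and 13.2 exon RPM at 0.7 MAC and 8.41, 9.65 and 11.3 RPM at 2.0 MAC, against 11.8, 11 and 15.5 RPM in control. Together the 2 genes had 38.3, 38.1 and 46.6 RPM in control and 53.0, 52.2 and 47.1 RPM at 0.7 MAC. At 2.0 MAC they had 43.4, 47.4 and 49.7 RPM, which overlapped control, whereas the 0.7 MAC libraries lay above it. This sum was not tested. Hist3h2a held 69.0 ± 2.25% of the reads of both genes in control, 74.0 ± 3.38% at 0.7 MAC and 79.2 ± 1.69% at 2.0 MAC. When each library was left out of the fit on total exon reads, the value at 0.7 MAC against control was 0.36 to 0.49 and stayed called only without 0.7 MAC replicate 3. The value at 2.0 MAC against control was 0.33 to 0.44 and lost its call without control replicate 1 (0.33), control replicate 2 (0.33), 2.0 MAC replicate 2 (0.35) or 2.0 MAC replicate 3 (0.34).

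**Figure D5:**
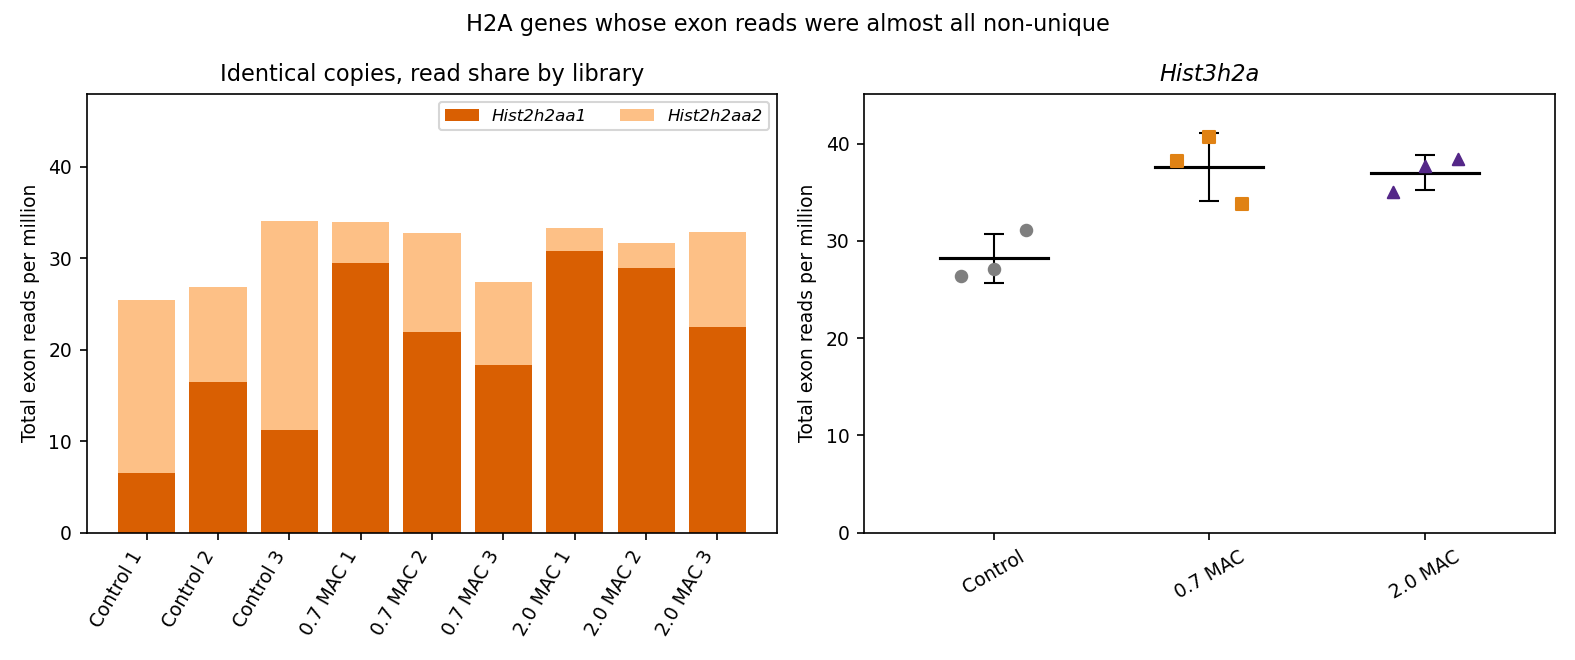
Total exon RPM (reads scaled to library size). The stacked bars give the reads of the identical copies Hist2h2aa1 and Hist2h2aa2 in each of 9 libraries, with sums of 25.4 to 34.1 and a share on Hist2h2aa1 of 25.6% to 92.4%. The points give Hist3h2a in each library with the mean ± SD of 3, where the control libraries reach 31.1 and the sevoflurane libraries begin at 33.8.

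Genes that make, process and place histone mRNA and protein were tested in the same fit. Of 20 tested genes for histone mRNA processing and transcription, among them Slbp, the cluster coactivator Npat and the U7 snRNP protein Lsm11, edgeR called 0 in each comparison, with 0 at 2.0 MAC against 0.7 MAC, 2 at 0.7 MAC against control and 2 at 2.0 MAC against control at an unadjusted p under 0.05. Of 20 tested S phase and proliferation genes it called 0 in each, with 3, 0 and 2 in the same comparisons at an unadjusted p under 0.05. Of 10 tested histone chaperones it called 1 at 2.0 MAC against 0.7 MAC, Nap1l1, an H2A and H2B chaperone (lower, -0.20, adjusted p = 0.0218), and 1 at 2.0 MAC against control, Hjurp, the chaperone of the centromeric H3 (higher, 0.21, adjusted p = 0.0352). Of 10 tested replication-independent histones it called 1, the H2A variant gene H2afj (higher at 2.0 MAC against control, 0.44, adjusted p = 0.0331). Over all genes 14.7% were called at 2.0 MAC against 0.7 MAC, 1.63% at 0.7 MAC against control and 9.78% at 2.0 MAC against control. In the same order, 26.7%, 15.5% and 22.7% of all genes had an unadjusted p under 0.05. The medians of these 4 lists lay between -0.08 and 0.09 in all 3 comparisons.

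Other features of the libraries differed too, some of them between groups. Among RNA genes without a poly(A) tail, Rny3, which encodes a Y RNA and was listed at 0 expression values, had deposited RPKM values of 85.1, 77.3 and 135 in control, 305, 297 and 98.4 at 0.7 MAC and 272, 340 and 390 at 2.0 MAC. The third 0.7 MAC value of Rny3 lay among the control values. Rny3 was picked from 12 such genes after its values were seen, and the others did not all share its order: Rpph1, the RNA of RNase P, had its lowest RPKM in 0.7 MAC replicates 2 and 3 (2180 and 2280). Of 12 markers of cortex and hippocampus neurons, 10 were called lower at 2.0 MAC than at 0.7 MAC (adjusted p under 0.05 by edgeR). Their summed CPM was 746 to 987 at 2.0 MAC, against 1980 to 2650 at 0.7 MAC, and 1480 to 2280 in control. Of 12 striatum markers 11 were called lower at 2.0 MAC, with 533 to 628 CPM against 1020 to 1670 CPM at 0.7 MAC. Of 10 oligodendrocyte markers 9 were called higher, with 9650 to 11600 CPM against 7150 to 8430 CPM. The 14 markers of hypothalamus neurons summed to 99.4 to 109 CPM at 2.0 MAC, against 59.5 to 72.6 CPM at 0.7 MAC, and 68.8 to 86.9 CPM in control. Of the 12 of them tested, 6 were called higher and 1 lower at 2.0 MAC against 0.7 MAC, and 3 higher and 1 lower against control. The shares of all tested genes called in these 2 comparisons were 14.7% and 9.78%. No listed marker of these cell groups was at 0, but a nonzero value alone does not show which brain regions the transcripts came from. The part of these differences in the histone values was not tested.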

How the data were processed

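RNA was depleted of ribosomal RNA and sequenced from a directional kit; no source used here says whether counting used strand. The authors mapped reads to GRCm38/mm10 with CLC Genomics Workbench and deposited 1 table of read counts and RPKM, which scales reads to exon length and library size. Tests on the table showed that the deposited expression values were unique exon reads plus non-unique junction reads, and that RPKM used total exon reads. Hist3h2bb-ps, without an annotated exon, had RPKM values all the same. Of 198 columns 120 were not used. The expression values (counts) of all 9 libraries were fitted with edgeR 4.0.16 in R 4.3.3 (filterByExpr with a minimum count of 10, TMM scaling, quasi-likelihood test, Benjamini-Hochberg adjustment over 14140 genes), and the script was tested on simulated counts. Alternatives used DESeq2 1.42.0 and limma 3.58.1 on log2(RPKM + 0.1) and log2(RPKM + 1), and other read columns. Coding sequences came from GENCODE M21 and promoters from RefSeq. Library pairs within a group differed by more than sampling noise (chi-square per degree of freedom 1.54 to 4.83). The members and gene lists were chosen with earlier results of these data known. Members could be named if they were among the 4 with the highest mean CPM of their type, were called in any comparison, were among the 4 with the lowest unique share at 20 or more reads, or were among the 5 with most intron or junction reads. Which of them are described, and Hist1h2bb, Hist1h4f, Hist1h4k and other members outside this rule, were chosen after their values were seen.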

Additional observations from a re-analysis of the deposited data

Results flagged for a closer look

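Hist3h2a had almost no expression value, since 1 of its 2222 exon reads was unique, but its total exon reads, a column outside the main test, stood above the control level in both sevoflurane groups. The log2 fold change from total exon reads was 0.41 at 0.7 MAC against control and 0.37 at 2.0 MAC against control. The exon is shared with Trim17, and how reads were divided between the genes was not tested. With the reads of Trim17 added, the 2.0 MAC libraries overlapped the control libraries.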

How the results depend on the processing

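The histone level summed over all types kept its direction in all 3 comparisons under the 5 other measures and when each library was left out, with log2 ratios of -0.16 to -0.02 at 2.0 MAC against 0.7 MAC, 0.14 to 0.31 at 0.7 MAC against control and 0.06 to 0.23 at 2.0 MAC against control. Sums of single types did not all keep theirs: the H2A sum ran from -0.31 to 0.03 (-0.21 in the main measure), from -0.04 to 0.27 (0.03) and from -0.25 to 0.29 (-0.17) in the same comparisons. The number of members called, 0 by edgeR in each comparison, moved with the reads and the filter, in the order 2.0 MAC against 0.7 MAC, 0.7 MAC against control and 2.0 MAC against control: 1, 2 and 1 with no filter on low counts (10.9%, 4.07% and 8.08% of all genes called), 1, 1 and 0 with unique gene reads, 1, 2 and 3 with total gene reads, 1, 1 and 3 with total exon reads and 0, 1 and 1 with total exon reads and copies summed. The last 2 were chosen after seeing the data. DESeq2 called 0, 0 and 1 (11.9%, 1.61% and 7.68% of all genes). Leaving out each library gave 0 to 1, 0 to 3 and 0 to 2, with 9.50% to 14.9%, 0.349% to 3.71% and 4.85% to 11.2% of all genes called. Upper-quartile scaling, library totals, a minimum count of 30, only the 6 libraries compared, limma on RPKM and a 2-fold limit each gave 0 in all 3. The 2-fold limit could give nothing else, since it was applied to the 0 members called. Limma on log2(RPKM + 0.1) called 17.2%, 0.339% and 9.22% of all genes. For the other settings of this group no such share is given, so their 0 is not set against all genes. The cause of the moves in the number called was not tested. The value for Hist1h2be changed sign at 2.0 MAC against control, from expression values to unique gene reads (0.10) and total gene reads (0.11), and at 0.7 MAC against control it ran from -0.11 to 0.24 when 1 library was left out (0.03 with all). Same-numbered libraries did not deviate together (correlations of residuals -0.211 to -6.85e-05, 0 of 9 pairs over 0.1), so the numbers do not pair them. With the replicate number as a block 0 members were called in each comparison, again with no share of all genes given. With 3 libraries a group, the median 95% interval of a member reached 0.48 to 0.49 on either side of its log2 fold change, and 44 of 70 members had too few unique exon reads to test.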
